A study of Mus musculus with 16 samples.

Results

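The nuclear genes for the subunits of the mitochondrial respiratory chain and the ATP synthase were followed through microglia of young and old mice that had or had not taken up amyloid-β 1-42 (Aβ42). The genes were chosen by symbol alone, as those for Nduf subunits (a, b, c, s and v), Sdha to Sdhd, Uqcr subunits, Cox4 to Cox8 subunits and Atp5 subunits. Of 35869 genes in the table, 86 matched, 2 of these were pseudogenes and were left out, and 84 remained. They comprised 37 genes of complex I, 4 of complex II, 8 of complex III, 18 of complex IV and 17 of complex V. The symbol is not always the protein's place. Atp5s and Atp5sl, named Dmac2l and Dmac2 in RefSeq, are not structural subunits of the ATP synthase, the protein of Ndufa4 is now placed in complex IV, and Cox7a2l serves in the joining of complexes to each other.

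The study sorted live CD45int CD11b+ brain cells of wild-type male mice of the strain C57/Bl6 by their uptake of fluorescent Aβ42, and sequenced their polyA RNA in 16 libraries. Aβ42+ and Aβ42− cells of young mice and Aβ42+ and Aβ42− cells of old mice made up 4 groups, with 4 libraries each. Young mice were 2 months old and old mice 18 months old, and a replicate was a pool of 3 mice according to a figure legend, while the methods speak of mice. All cells had been incubated with 2.5 μM Aβ42 for 2 h before the sort, so that Aβ42− cells had met the peptide as well and no group was without it. The Aβ42+ and Aβ42− libraries of the same age and number were taken as sorted from 1 pool, which the titles number but do not state.

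Oxidative phosphorylation makes ATP in the inner mitochondrial membrane. Complexes I and II feed electrons from NADH and succinate to ubiquinone, complex III passes them to cytochrome c, complex IV to oxygen, and the proton gradient that complexes I, III and IV build drives the ATP synthase, complex V. Most subunits are encoded in the nucleus, while a small core of complexes I, III, IV and V is encoded in mitochondrial DNA, and complex II, which is also an enzyme of the citric acid cycle, is nuclear throughout. Microglia, the resident macrophages of the brain, use both oxidative phosphorylation and glycolysis.

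Values are TPM, reads of a gene scaled to its length and to the same total in each library, so the depth of a library is unknown. Libraries differed in a level shared by silent genes, the background level, taken as a trimmed mean over 1430 receptor genes of the olfactory and vomeronasal families. It ranged from 0.331 to 11.6 TPM over the 16 libraries and was highest in replicate 3 of every group. All 10 microglia markers exceeded 1 TPM in every library, and their summed TPM was 2794 ± 169 (mean ± SD, n = 4) in young and 1921 ± 349 in old Aβ42+ libraries, and 2438 ± 29.8 in young and 1414 ± 341 in old Aβ42− libraries. Against the sort, all 10 markers of neutrophils and their precursors exceeded 1 TPM in every library too, with sums of 2953 ± 366, 4973 ± 1306, 7508 ± 820.4 and 8633 ± 1044 TPM in the same order. Monocyte markers summed to 567 ± 131, 1007 ± 402, 1123 ± 92.5 and 1329 ± 103 TPM. The part of these cells in the levels below was not tested, and in bulk RNA fewer cells of a type and less RNA per cell cannot be told apart.

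The subunits were among the well expressed genes. All but 2 of the 84 were above 0 in all 16 libraries, 53 had a mean of at least 100 TPM, 27 lay between 10 and 100 TPM and 4 lay under 10 TPM. TPM allows levels of different genes to be set side by side, since it is scaled to length. In complex I the highest means over all libraries belonged to Ndufa3, a small accessory subunit, with 277 TPM and to Ndufa4 with 272 TPM. In complex II they belonged to Sdha, the flavoprotein that oxidizes succinate, with 199.9 TPM and to the membrane anchor Sdhd with 191 TPM. Complex III was led by Uqcrh, the hinge protein, at 326 TPM and by the core protein Uqcrc1 at 246 TPM, and complex IV by Cox6a1 and Cox6b1 at 379 and 334 TPM. The highest of all members were Atp5b and Atp5a1, the catalytic β and the α subunit of the ATP synthase head, at 579 and 421 TPM. Duplicate reads had been removed from single reads, which limits how many reads a short transcript can keep.

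**Figure D1:**
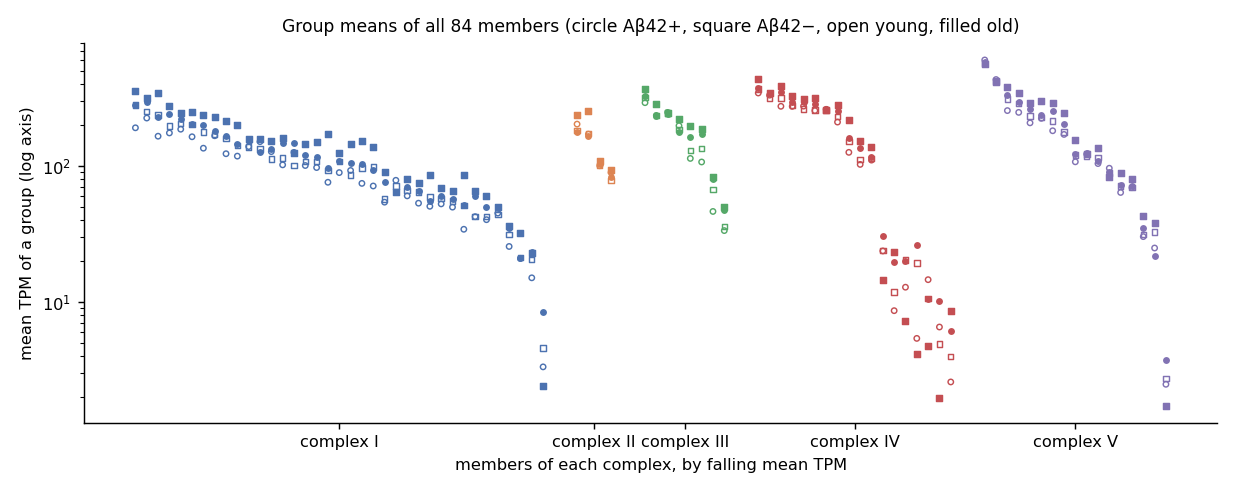
Mean TPM of each group (log axis) for all 84 members, ordered within each complex by their mean over all libraries, with circles for Aβ42+, squares for Aβ42−, open symbols for young and filled symbols for old. Most members of each complex lie within a narrow band, and in complexes I, IV and V a few members lie far under the others.

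Promoter windows of the members were searched for motifs of factors that are known to act on genes of this kind. From RefSeq (build GRCm38.p6), 75 windows of 300 bases, from 250 bases before to 50 after a transcription start, were found for 69 of the 84 members. The motif GCGCANGCG of nuclear respiratory factor 1 (NRF1) was read in 28% of the member windows and in 6.25% of all 32851 windows, on either strand. The ETS motif CCGGAAG stood in 21.3% against 8.86%, and the YY1 motif AANATGGCG in 16% against 2.38%. The GC box GGGCGG was about as frequent in members, at 38.7%, as in all windows, at 35.7%. The motifs were not spread evenly over the complexes, with NRF1 in 1 of 13 windows of complex IV, 7.69%, and YY1 in 12 windows of complexes I and V and in 0 of the others. At least 1 of the first 3 motifs was present in 54.7% of the member windows and in 15.4% of all windows, with overlaps between motifs allowed. Some windows of 1 gene overlap each other, and a match of letters is a description, not a bound site. The 5 windows below belong to genes whose values are given further on, and were chosen to show each of the 3 motifs, with the NRF1, ETS and YY1 matches in capitals. They are Ndufs5 at chr4:123718137-123718436 on the minus strand, Sdha at chr13:74350191-74350490 on the minus strand, Sdhd at chr9:50603800-50604099 on the minus strand, Atp5o at chr16:91931581-91931880 on the minus strand and Atp5b at chr10:128083057-128083356 on the plus strand, each written from 5′ to 3′ in the direction of transcription.
Ndufs5: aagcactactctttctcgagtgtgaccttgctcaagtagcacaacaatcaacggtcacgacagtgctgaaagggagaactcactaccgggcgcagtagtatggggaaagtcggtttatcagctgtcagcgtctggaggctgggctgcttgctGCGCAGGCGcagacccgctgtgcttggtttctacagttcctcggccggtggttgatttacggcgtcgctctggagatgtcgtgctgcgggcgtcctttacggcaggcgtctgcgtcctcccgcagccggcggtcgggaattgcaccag
Sdha: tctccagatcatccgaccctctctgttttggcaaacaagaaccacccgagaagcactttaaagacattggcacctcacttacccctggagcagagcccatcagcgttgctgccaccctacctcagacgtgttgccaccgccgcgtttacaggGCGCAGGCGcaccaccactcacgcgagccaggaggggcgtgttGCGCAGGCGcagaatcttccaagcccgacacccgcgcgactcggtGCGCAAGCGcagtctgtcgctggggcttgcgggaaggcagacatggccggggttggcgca
Sdhd: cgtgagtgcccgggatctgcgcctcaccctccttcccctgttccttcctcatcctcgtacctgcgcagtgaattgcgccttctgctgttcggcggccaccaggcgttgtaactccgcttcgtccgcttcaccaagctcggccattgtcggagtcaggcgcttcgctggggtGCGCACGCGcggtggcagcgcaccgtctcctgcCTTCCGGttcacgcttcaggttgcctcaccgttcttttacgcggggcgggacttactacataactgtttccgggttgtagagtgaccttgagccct
Atp5o: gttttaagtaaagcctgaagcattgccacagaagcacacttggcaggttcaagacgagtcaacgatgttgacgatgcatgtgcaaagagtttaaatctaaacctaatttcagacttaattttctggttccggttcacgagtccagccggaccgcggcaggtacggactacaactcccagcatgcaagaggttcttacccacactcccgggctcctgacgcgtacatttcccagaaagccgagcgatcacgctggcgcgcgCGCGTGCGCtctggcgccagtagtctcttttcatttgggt
Atp5b: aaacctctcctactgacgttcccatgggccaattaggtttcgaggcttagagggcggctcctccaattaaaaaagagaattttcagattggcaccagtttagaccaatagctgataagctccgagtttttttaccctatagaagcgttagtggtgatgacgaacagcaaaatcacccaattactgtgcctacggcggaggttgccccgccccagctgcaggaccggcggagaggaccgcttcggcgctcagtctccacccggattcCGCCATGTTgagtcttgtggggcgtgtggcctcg
The window of Ndufs5 held 1 NRF1 match, that of Sdha 3, that of Atp5o 1 and that of Sdhd 1 NRF1 and 1 ETS match, while that of Atp5b held 1 YY1 match at its end.

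Summed over a complex in the deposited TPM, subunit mRNA was highest on average in old Aβ42− microglia for all 5 complexes. Complex I summed to 3523 ± 324 TPM in young Aβ42+, 4007 ± 486 in young Aβ42−, 4362 ± 1062 in old Aβ42+ and 5334 ± 777 in old Aβ42− libraries (mean ± SD, n = 4). The libraries of old Aβ42+ microglia read 5549, 4472, 2964 and 4461 TPM and those of old Aβ42− microglia 6134, 5817, 4450.2 and 4935 TPM, in the order of replicates 1 to 4. Replicate 1 was the highest and replicate 3 the lowest in both, and in each of the 4 old pools the Aβ42− sort was above the Aβ42+ sort. The groups overlapped, as they did for the sums of every other complex in every comparison. The sums of complexes III, IV and V followed the same order of groups, with 1272 ± 149, 2638 ± 163 and 2940.1 ± 216 TPM in young Aβ42+ and 1635 ± 204, 3229.9 ± 188 and 3580.2 ± 229 TPM in old Aβ42− libraries. Complex II did not follow it, with 565 ± 83.8 TPM in young Aβ42+, 535 ± 81 in young Aβ42−, 531 ± 125 in old Aβ42+ and 694 ± 74.5 in old Aβ42− libraries. The order depends on scaling. With TMM or median-of-ratios factors the sums of all 5 complexes were lower in old than in young Aβ42+ libraries, with ratios of the means from 0.699 to 0.939. Those of young Aβ42− to young Aβ42+ libraries ran from 0.895 to 1.08. Old Aβ42− libraries were at 1.49 to 1.84 times young Aβ42− libraries and 1.67 to 2.34 times old Aβ42+ libraries. Both kinds of factors, by which TPM are divided, were highest in replicate 3 of each group, as was the background level. Between the sorts of old mice the TMM factor was 2.16 for Aβ42+ replicate 3, with the highest background, and 0.599 for Aβ42− replicate 1, with the lowest. The part of the background in these ratios was not tested. All 84 members together summed to 10939 ± 895, 11740.5 ± 1379, 12563 ± 2651 and 14472 ± 1472 TPM in the groups in the order used for complex II. With the background level subtracted and the libraries rescaled, these sums were 11832 ± 337, 12826 ± 1442, 14313 ± 1703 and 14911 ± 1157 TPM. Old Aβ42− libraries were then at 1.04 times old Aβ42+ libraries on average, beside 1.15 times in the deposited TPM. The order of groups for single complexes under this setting is not given here.

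**Figure D2:**
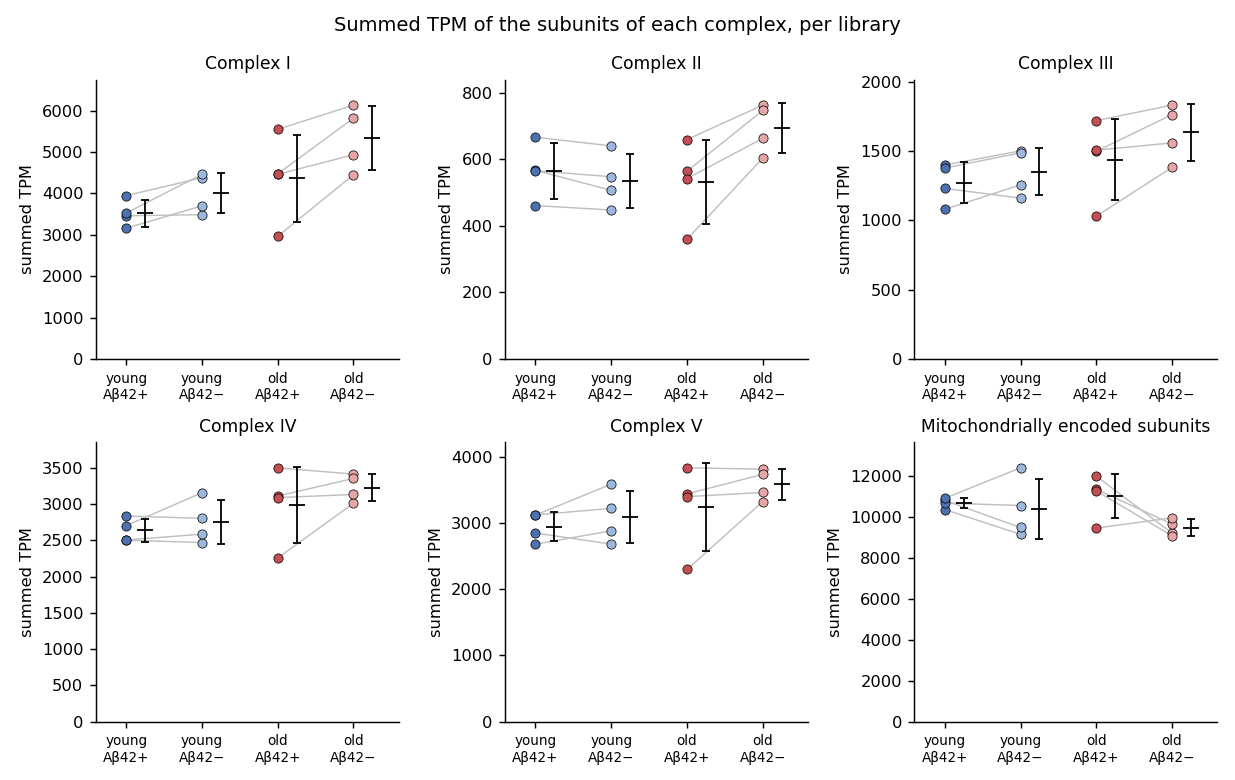
Summed TPM of the members of each complex and of the 13 subunits encoded in mitochondrial DNA, for each library, with grey lines joining the 2 sorts of 1 pool and bars for mean ± SD (n = 4). Old Aβ42− libraries are highest on average for all 5 nuclear sets and lowest on average for the mitochondrially encoded set.

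Old and young Aβ42+ microglia were compared to find how age bears on the subunits in cells that had taken up Aβ42. No member passed the test, limma on log2(TPM + 1) with Benjamini-Hochberg adjustment over all 33578 genes at 0.05, where 0.0268% of all genes passed. At an unadjusted p under 0.05 there were 11 of 84 members, all higher in old microglia, and 9.22% of all genes in either direction. The old and young libraries did not overlap for 7 members, all higher in old microglia, beside 2.85% of all genes in that direction and 2.71% of genes averaging 50 TPM or more. The fold change was above 0 for 68 members and below 0 for 16, with a median log2 fold change of 0.20, while the median was 0.38 over all genes tested and -0.25 over those averaging 50 TPM or more. By complex the medians were 0.27 for I, -0.10 for II, 0.30 for III, 0.19 for IV and 0.08 for V. Genes of complex I accounted for 34 of the 68 higher members, with 3 of its genes lower. Without both libraries numbered 3, which had the highest background, 4 members passed, all higher in old microglia, beside 1.09% of all genes. Under TMM or median-of-ratios scaling the median of the members turned to -0.24 or -0.25, with 17 or 16 members above 0. Markers of border-associated macrophages were at 247 ± 24.9 TPM in old cells in sum, against 169 ± 29.5 TPM in young ones, and their part in these values was not tested.

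Uqcr10, a small subunit of complex III, had the lowest p in this comparison. It read 53.7, 36.8, 46.2 and 48.8 TPM in young Aβ42+ and 102, 77.9, 58 and 80.7 TPM in old Aβ42+ libraries. Every old library was above every young one. Its log2 fold change was 0.75 ± 0.20 (SE), with an adjusted p of 0.416 by limma and an exact two-sided permutation p of 0.0286, the smallest that 4 libraries against 4 allow. Ndufv1, which binds NADH and the flavin at the entry of complex I, read 109, 86.9, 83.9 and 128 TPM in young and 157, 140.3, 139 and 152 TPM in old libraries, again without overlap (log2 fold change 0.54 ± 0.17, limma adjusted p 0.449). Ndufb9, an accessory subunit of the membrane arm, read 174, 163, 172 and 190.5 TPM in young and 278, 228, 223 and 233 TPM in old libraries. The lowest old value was above the highest young one, and the log2 fold change was 0.45 ± 0.14 (limma adjusted p 0.436). A pair of further accessory subunits of complex I had the same direction at lower levels. Ndufa13, also known as Grim19, measured 15.1 ± 1.5 TPM in young and 23.3 ± 1.9 TPM in old microglia, without overlap, and Ndufv3 measured 34.3 ± 5.9 and 52.1 ± 9.06 TPM, with overlap. Complexes II, IV and V had their lowest p for Sdha, with a log2 fold change of -0.21 ± 0.24, for Cox7a1 with 1.08 ± 0.43 and for Atp5l, a subunit of the membrane part of the synthase, with 0.34 ± 0.18. None of these 3 passed, with limma adjusted p from 0.517 to 0.687.

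Old and young Aβ42− microglia, the cells without uptake, were compared in the same way. No member passed at an adjusted p of 0.05, where 2.15% of all 31982 genes passed, but 36 members were higher and 1 was lower in old microglia at an unadjusted p under 0.05, beside 24.0% of all genes in either direction. For 19 members all 4 old libraries were above all 4 young ones and for none below, beside 5.96% of all genes higher, or 17.8% of genes averaging 50 TPM or more. These 19 comprised 9 genes of complex I, 1 of complex II, 3 of complex III, 5 of complex IV and 1 of complex V. The fold change was above 0 for 72 members and below 0 for 12. The median log2 fold change of the members was 0.30, beside -0.56 over all genes tested and 0.16 over those of at least 50 TPM, and by complex it ran from 0.26 in IV to 0.42 in I. Without both libraries numbered 3, 8 members passed, all higher, beside 6.59% of all genes. Leaving out old Aβ42− replicate 3 alone gave 17 members, 16 higher and 1 lower, beside 8.29% and 6.17% of all genes. Leaving out young Aβ42− replicate 1 alone gave 32, 31 higher and 1 lower, beside 10.5% and 31.5% of all genes. That library had a background level of 0.553 TPM, beside 4.24 to 5.46 TPM in the others of its group and 0.331 to 2.88 TPM in old Aβ42− libraries. Without it the background levels of young and old libraries did not overlap, and the part of the background in this count was not tested. Neutrophil and monocyte markers were higher in old than in young Aβ42− libraries on average and microglia markers lower, as given above. B cell markers had a sum of 221 ± 96.4 TPM in old cells, against 83.6 ± 31 TPM in young ones, and T and NK cell markers one of 387 ± 70.9 against 479 ± 80.0 TPM.

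Ndufs5, an accessory subunit of complex I whose promoter window is shown above, came closest to the threshold. It read 102, 89.1, 88.6 and 107 TPM in young Aβ42− and 181, 161, 124 and 142 TPM in old Aβ42− libraries. The young libraries lay close together, and every old library was above them (log2 fold change 0.64 ± 0.14, limma adjusted p 0.05003, just above the threshold). Ndufb3, an accessory subunit of the membrane arm, read 112, 75.5, 74 and 109 TPM in young and 193, 205, 122 and 166 TPM in old libraries, with replicate 3 the lowest of each group and no overlap. Its log2 fold change of 0.88 ± 0.20 was the highest among the members named for this comparison (limma adjusted p 0.0556). Uqcrfs1, the Rieske iron-sulfur protein of complex III, read 147, 116, 115 and 141 TPM in young and 221, 205, 159 and 199 TPM in old libraries. Here too the groups did not overlap (log2 fold change 0.59 ± 0.14, limma adjusted p 0.056). Ndufa6, an accessory subunit of the matrix arm, had nearly the same value in all young Aβ42− libraries, 181, 175, 174 and 178 TPM, and 260.5, 254, 206 and 226 TPM in old ones (log2 fold change 0.41 ± 0.10, limma adjusted p 0.0653). Cox7a2, the form of subunit 7a found in most tissues, measured 151 ± 22.4 TPM in young and 217 ± 22.7 TPM in old libraries, and Atp5o, the stalk subunit that confers sensitivity to oligomycin, 226 ± 29.5 and 301 ± 30.3 TPM. Both pairs of groups were free of overlap, and neither passed (limma adjusted p 0.0678 and 0.096). The exact permutation p was 0.0286 for each of these 6 genes.

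**Figure D3:**
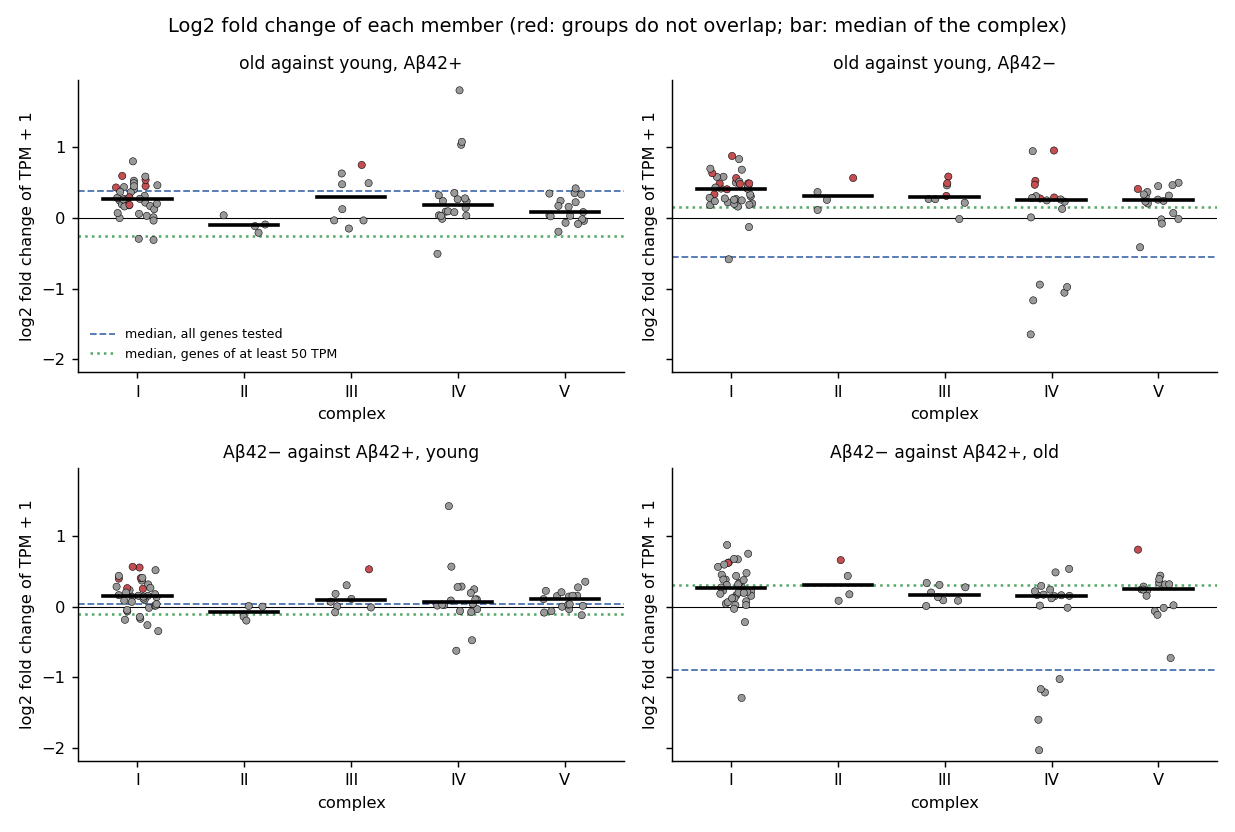
Log2 fold change of TPM + 1 for each of the 84 members by complex in the 4 comparisons, red where the 4 libraries of the groups do not overlap, with black bars for the median of a complex and lines for the medians of all genes tested (dashed) and of genes of at least 50 TPM (dotted). In old against young Aβ42− microglia most members lie above 0. The median of all genes lies at -0.56 there, where the background level was lower in old libraries on average, and that of genes of at least 50 TPM at 0.16. In old against young Aβ42+ microglia complex II lies around -0.10.

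Aβ42− and Aβ42+ microglia of young mice were compared to find how the subunits differ with uptake. No member passed, where 1.67% of all 33281 genes did, and blocking by pool left this count at 0. Before adjustment, 10 members were higher and 1 lower in Aβ42− cells at a p under 0.05, beside 6.97% of all genes in either direction. The groups did not overlap for 7 members, all higher in Aβ42− cells, and 6 of the 7 belonged to complex I. This stands beside 4.05% of all genes, and for genes averaging 50 TPM or more it was 5 of 65 members beside 9%. The median log2 fold change was 0.11, with 63 members above 0 and 21 below, beside 0.04 for all genes and -0.10 for genes of at least 50 TPM. Within single pools the count of higher members was 54, 40, 56 and 68 of 84 for replicates 1 to 4, so replicate 2 had slightly more members lower than higher. With TMM or median-of-ratios factors 45 or 49 members were above 0, at a median of 0.02 or 0.04. Markers of other cells differed between the sorts as well. T and NK cell markers summed to 34.5 ± 19.5 TPM in Aβ42+ and 479 ± 80.0 TPM in Aβ42− libraries, and neutrophil markers to 2953 and 7508 TPM on average. The T cell marker Cd3e made up little of the former, at 2.52 ± 1.82 TPM in Aβ42+ and 5.43 ± 0.814 TPM in Aβ42− libraries. Markers of border-associated macrophages went the other way, from 169 ± 29.5 to 70.8 ± 14.3 TPM.

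Ndufa3 had the lowest p, at 185, 212, 203 and 163 TPM in Aβ42+ and 278, 242, 289 and 314 TPM in Aβ42− libraries. All Aβ42− libraries were above all Aβ42+ ones (log2 fold change 0.56 ± 0.12, limma adjusted p 0.0596, or 0.118 with the pool as a block). Uqcr10, which was also the first in the age comparison of Aβ42+ cells and shares its young Aβ42+ libraries with it, read 70.1, 61.4, 64.2 and 72.1 TPM in young Aβ42− libraries, above the young Aβ42+ values already given (log2 fold change 0.53 ± 0.14, limma adjusted p 0.165). Ndufa6 followed with a log2 fold change of 0.40 ± 0.11 and Ndufa8, an accessory subunit that faces the intermembrane space, with 0.26 ± 0.09. Ndufa8 had a small spread, with 122, 109.9, 118 and 122 TPM in Aβ42+ and 141, 139.6, 140.1 and 144 TPM in Aβ42− libraries. Ndufv3 read 32.1, 30.8, 31.2 and 43.1 TPM in Aβ42+ and 59.8, 44.4, 43.5 and 57.4 TPM in Aβ42− libraries, where the highest Aβ42+ library, replicate 4, stood just under the lowest Aβ42− one. The lowest p in complexes II, IV and V fell to Sdhc, a membrane anchor, at a log2 fold change of -0.19 ± 0.18, to Cox8a at 0.20 ± 0.10 and to Atp5e, the ε subunit of the central stalk, at 0.28 ± 0.18. Their groups overlapped, and none passed (limma adjusted p from 0.842 to 1.00).

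In old mice 1 member passed, Atp5sl, where 4.74% of all 32429 genes passed as higher and 8.23% as lower in Aβ42− cells. Atp5sl read 27, 25.7, 16.3 and 18.2 TPM in old Aβ42+ and 41.2, 37.8, 37.5 and 36.1 TPM in old Aβ42− libraries. Each Aβ42− library was above each Aβ42+ one (log2 fold change 0.81 ± 0.21, limma adjusted p 0.0405). Atp5sl, whose protein is known under the name Dmac2 as a helper in the assembly of complex I, was the only member to rise at this threshold, and none did under TMM, median-of-ratios or quantile scaling or with the background level subtracted or as a covariate. With the pool as a block, 14 members passed, 11 higher and 3 lower, beside 10.7% of all genes higher and 47.2% lower. The 11 were Ndufa8, Ndufb3, Ndufb7, Ndufb11, Ndufc1, Ndufs1, Ndufs4, Ndufs5 and Ndufv3 of complex I, Sdhd of complex II, and Atp5sl, and the 3 lower were Ndufa4l2, Cox4i2 and Cox8c. At an unadjusted p under 0.05 there were 8 higher and 1 lower members, beside 45.5% of all genes. Of the 84 members, 71 were above 0 and 13 below, at a median log2 fold change of 0.21, beside -0.89 for all genes and 0.31 for genes of at least 50 TPM. The groups did not overlap for 3 members, Atp5sl, Sdhd and Ndufb7, all higher, beside 8.12% of all genes and 25% of genes averaging 50 TPM or more. Without both libraries numbered 3, 9 members passed, 8 higher and 1 lower, beside 13.4% and 23.5% of all genes. Leaving out old Aβ42+ replicate 1 alone gave 13 members, 10 higher and 3 lower, beside 9.88% and 45.3% of all genes. Leaving out old Aβ42− replicate 3 alone gave 5, 4 higher and 1 lower, beside 9.03% and 28.0%, while any other single library left out gave none. The background levels of the sorts overlapped only through old Aβ42+ replicate 1, at 1.27 TPM, and old Aβ42− replicate 3, at 2.88 TPM. Without either library they did not overlap, and the part of the background in these counts was not tested. The background level was 5.76 ± 4.27 TPM in old Aβ42+ and 1.31 ± 1.11 TPM in old Aβ42− libraries, and with it as a covariate the median of the members turned to -0.17. With quantile scaling it was -0.02, with 40 members above 0 and 44 below, and with the background subtracted and the libraries rescaled it was 0.08, with 55 above and 29 below. T and NK cell markers summed to 53.8 ± 24.5 TPM in old Aβ42+ and 387 ± 70.9 TPM in old Aβ42− libraries, and markers of border-associated macrophages to 247 ± 24.9 and 103 ± 28.1 TPM. The T cell marker Cd3e went against the sum of its list, at 6.33 ± 4.49 TPM in old Aβ42+ and 4.12 ± 3.89 TPM in old Aβ42− libraries.

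Ndufb7, an accessory subunit of complex I, read 302, 224, 151 and 246 TPM in old Aβ42+ and 366, 386, 307 and 327 TPM in old Aβ42− libraries, with the highest Aβ42+ library just under the lowest Aβ42− one. Its log2 fold change of 0.62 ± 0.22 had a limma adjusted p of 0.0727, and of 0.0291 with the pool as a block. Ndufb3 read 149, 99.8, 55 and 84.8 TPM in old Aβ42+ libraries, under the Aβ42− sort of its own pool in 4 of 4 pools, with a log2 fold change of 0.88 ± 0.29 (limma adjusted p 0.0661, or 0.00973 with the block). Ndufv3 differed by 0.68 ± 0.24 on the log2 scale (limma adjusted p 0.0731, or 0.0141 with the block). In complex III the lowest p was that of Uqcrc2, a core protein, which measured 177 ± 29.5 TPM in Aβ42+ and 223 ± 25.8 TPM in Aβ42− libraries and did not pass in either fit.

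**Figure D4:**
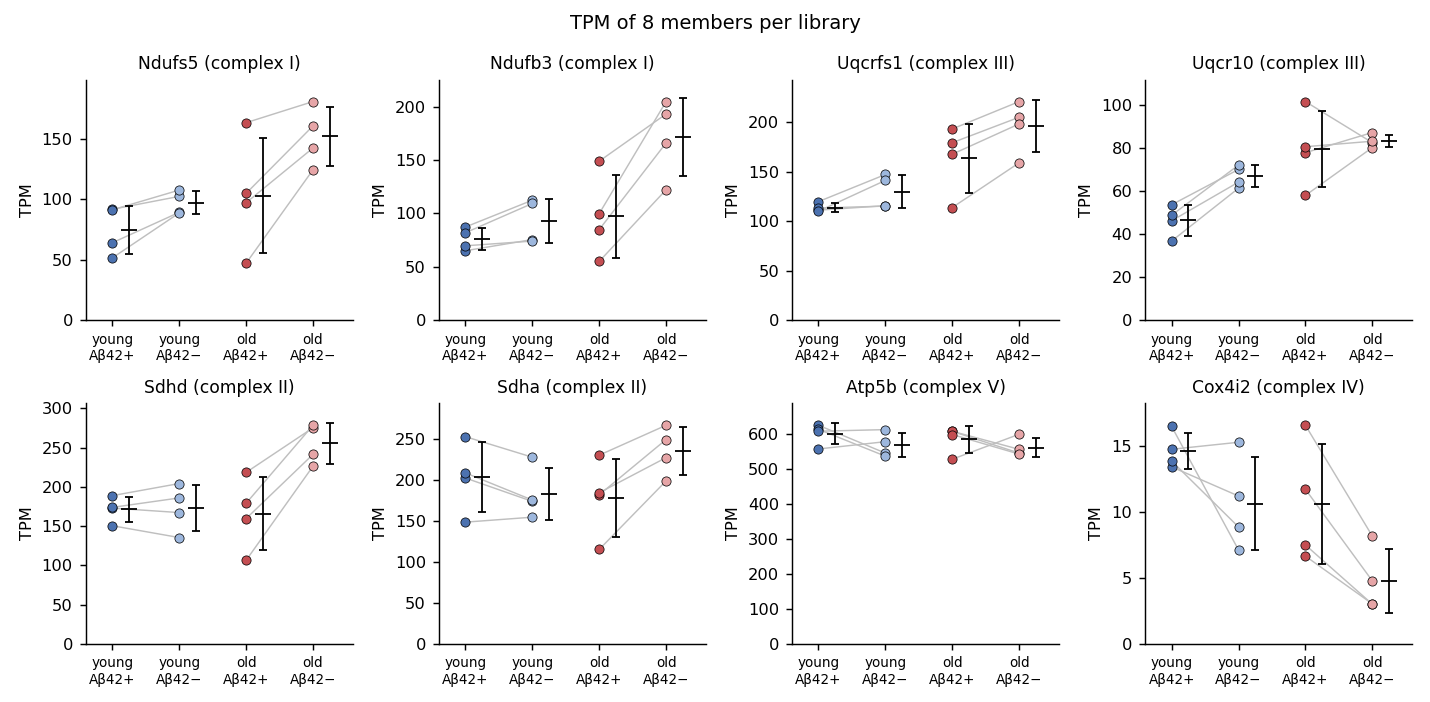
TPM of 8 members in each library, with grey lines joining the 2 sorts of 1 pool and bars for mean ± SD (n = 4). Ndufs5, Ndufb3, Uqcrfs1 and Sdhd are highest on average in old Aβ42− libraries, Uqcr10 is lowest on average in young Aβ42+ libraries, Atp5b varies little between groups, and Cox4i2 is lowest on average in old Aβ42− libraries.

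In the deposited TPM, the complex II sum was lower in the Aβ42− sort of young mice and higher in that of old mice. In young pools the sum was lower in the Aβ42− than in the Aβ42+ sort in 4 of 4 pools, by 29.2 ± 21.2 TPM (mean ± SD). In old pools it was higher in 4 of 4, by 162 ± 63.8 TPM. By log2 fold change, 2 of the 4 genes were higher and 2 lower in young Aβ42− cells, and all 4 were higher in old ones. These counts of pools were not examined with other scaling of the sums. The difference between the ages was not tested on the sums, and the members are tested below. As a share of the summed TPM of all members, which does not depend on how a library is scaled, complex II took 5.56, 5.34, 4.66 and 5.01% in young Aβ42+ and 4.32, 4.31, 4.04 and 4.17% in old Aβ42+ libraries, without overlap. The share was 5.1, 4.91, 4.12 and 4.14% in young Aβ42− and 4.78, 4.84, 4.72 and 4.82% in old Aβ42− libraries. The old Aβ42− libraries had nearly the same share, and all of them lay above all old Aβ42+ libraries. The share of complex I moved the other way with age in Aβ42+ cells, from 32.2 ± 0.767% to 34.5 ± 1.3% without overlap, and it was higher in the Aβ42− sort of 8 of 8 pools, at 34.1 ± 0.541% in young and 36.7 ± 1.66% in old Aβ42− libraries. A share of 1 complex falls when that of another rises, so these values are not independent.

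**Figure D5:**
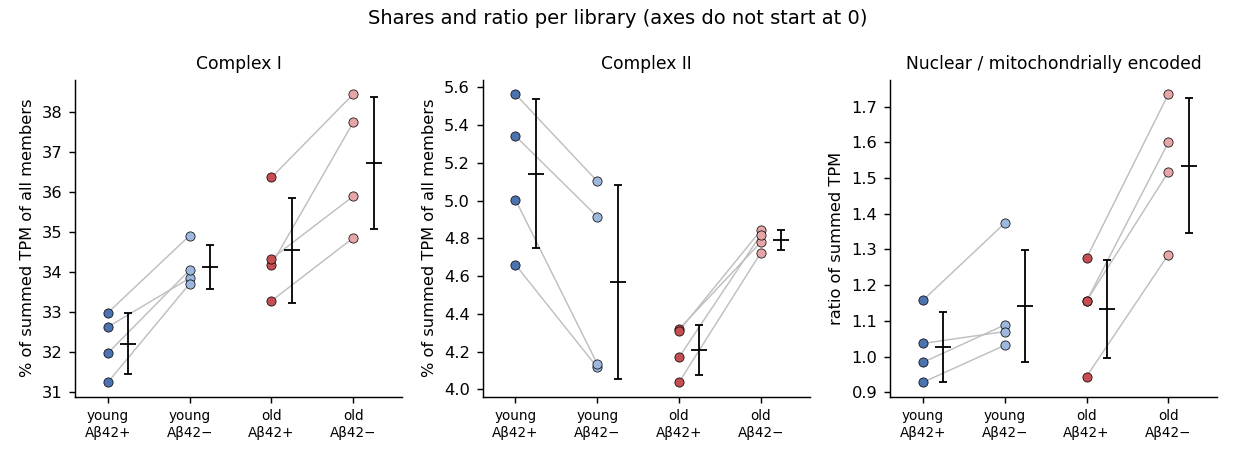
Share of complex I and of complex II in the summed TPM of all 84 members, and ratio of the summed TPM of the 84 nuclear members to that of the 13 mitochondrially encoded subunits, per library, with grey lines joining the 2 sorts of 1 pool, bars for mean ± SD (n = 4) and axes that do not start at 0. The complex II lines slope down in all 4 young pools and up in all 4 old pools, and the ratio rises toward Aβ42− in all 8.

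The interaction of age and uptake, fitted over all 16 libraries, gave an adjusted p of 0.05 or less for none of the 84 members and for 0.0116% of all 34492 genes. At an unadjusted p under 0.05 there were 2 members, Sdhd and Cox8b, beside 20.1% of all genes. With the 8 pools as a block, 4 members passed, all with a larger Aβ42− to Aβ42+ difference in old mice, beside 5.32% of all genes in that direction and 31.6% in the other. They were Sdhd and Sdha of complex II and Ndufs1 and Ndufb3 of complex I. Sdhd read 189, 173, 150.4 and 174 TPM in young Aβ42+ and 204, 167, 135 and 186 TPM in young Aβ42− libraries, so that pools went both ways. In old pools it read 218, 179, 106 and 159 TPM in Aβ42+ and 275, 278, 226 and 241 TPM in Aβ42− libraries, all of the latter above all of the former. Its interaction term was 0.66 ± 0.27 on the log2 scale (limma adjusted p 0.247, or 0.0254 with the block). Sdha read 253, 202, 148 and 209 TPM in young Aβ42+ and 228, 174, 155 and 175 TPM in young Aβ42− libraries, lower in Aβ42− cells in 3 of 4 pools, and 230.3, 182, 115 and 184 TPM in old Aβ42+ and 267, 249, 199 and 227 TPM in old Aβ42− libraries, higher in 4 of 4 pools. Its interaction term was 0.58 ± 0.29 (limma adjusted p 0.25, or 0.0284 with the block). Sdhb, the iron-sulfur subunit, lay between 100.5 and 109 TPM in all 4 group means. Uqcr10 and Ndufa13 had terms of the opposite sign, -0.44 ± 0.22 and -0.43 ± 0.23, which turned above 0 under TMM and median-of-ratios scaling, and neither passed. In complexes IV and V the lowest p fell to Cox8b, at -3.46 ± 1.45, whose values rest on single libraries, and to Atp5s, which measured 3.78 ± 2.11 TPM in old Aβ42+ and 1.74 ± 0.445 TPM in old Aβ42− libraries.

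The 13 subunits encoded in mitochondrial DNA did not share the order of the nuclear ones. Their summed TPM was 10669 ± 238 in young Aβ42+, 10379.5 ± 1459 in young Aβ42−, 10996 ± 1087 in old Aβ42+ and 9458 ± 401 in old Aβ42− libraries. In old mice all 13 were lower in Aβ42− than in Aβ42+ cells, with log2 fold changes from -0.33 for COX1, which measured 1111 ± 71.4 TPM in Aβ42+ and 882 ± 66.7 TPM in Aβ42− libraries, to -0.06 for ND5. The sorts did not overlap for 4 of the 13, beside 13.8% of all genes in that direction and 4.10% of genes averaging 50 TPM or more. None of them passed in any comparison, and their lowest limma adjusted p in old mice was 0.149. In old against young Aβ42− cells 12 of 13 were lower and 1 higher. The ratio of the nuclear to the mitochondrially encoded sum was 1.16, 0.984, 0.928 and 1.04 in young Aβ42+, 1.37, 1.09, 1.03 and 1.07 in young Aβ42−, 1.28, 1.15, 0.944 and 1.16 in old Aβ42+ and 1.73, 1.6, 1.29 and 1.52 in old Aβ42− libraries. It was higher in the Aβ42− sort in 8 of 8 pools, and old Aβ42− libraries lay above all old Aβ42+ ones, on average at 1.53 against 1.13. The 13 genes lay between 361 and 1208 TPM in every library, near the top of the table, where removal of duplicate reads limits the values most.

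Catalytic and core subunits are given next by their levels, and none of them passed in any of the 4 comparisons of the deposited TPM with all 8 libraries and no block. In the head of the ATP synthase, Atp5b read 625, 613, 557 and 608 TPM in young Aβ42+, 545, 537, 578 and 613 TPM in young Aβ42−, 608, 608, 528 and 599 TPM in old Aβ42+ and 545, 556, 599 and 543 TPM in old Aβ42− libraries. Atp5a1 had group means of 432 ± 32.9, 422 ± 28.8, 415 ± 58.2 and 417 ± 6.83 TPM in the same order, and Cox4i1, a subunit beside the catalytic core of complex IV, had 261 ± 8.2, 256 ± 32.6, 263 ± 50.2 and 257 ± 4.02 TPM. For all 3 the groups overlapped in every comparison. In complex I, the NADH-binding Ndufv1 and its partner Ndufv2 averaged 102 ± 20.7 and 49.9 ± 1.74 TPM in young Aβ42+ cells and 160.5 ± 19.6 and 65.5 ± 5.32 TPM in old Aβ42− cells, groups that differ in both age and uptake and were not tested against each other. Among the subunits that carry or line the path of the iron-sulfur clusters, Ndufs1 measured 21 ± 4.31 and 32.1 ± 5.51 TPM in those groups, Ndufs3 89.4 ± 16.7 and 124 ± 17.8 and Ndufs7 52.7 ± 9.24 and 68.9 ± 10.2 TPM. Ndufs8 had its highest mean in young Aβ42+ cells, 78.5 ± 8.92 TPM against 64.8 ± 5.02 TPM in old Aβ42− cells, and it was not called in any comparison.

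Subunits that exist in several forms were mostly represented by the form of most tissues. Cox4i2, the form of subunit 4 linked to low oxygen, read 11.2, 15.3, 8.85 and 7.11 TPM in young Aβ42− and 3.02, 3.0, 8.16 and 4.76 TPM in old Aβ42− libraries, against 256 and 257 TPM for Cox4i1 on average. Its log2 fold change with age was -1.06 ± 0.37 (limma adjusted p 0.144), and in old mice it was -1.02 ± 0.41 in Aβ42− against Aβ42+ cells (limma adjusted p 0.091, or 0.00933 with the pool as a block). In both comparisons the background level was lower too in old Aβ42− libraries on average. The muscle forms Cox6a2, Cox7a1 and Cox8b had means of 23.3, 15.9 and 13.8 TPM, beside 379, 164 and 331 TPM for Cox6a1, Cox7a2 and Cox8a. Cox8b rested on single libraries, with 76.4 TPM in old Aβ42+ replicate 1 and 56.6 TPM in young Aβ42− replicate 4, against 0 to 18 TPM in the other 14. The sum of 4 choroid plexus markers was highest in the same 2 libraries, at 1100 and 888 TPM, against 37.4 to 337 TPM in the other 14. The part of choroid plexus cells in the Cox8b values was not tested. Cox6b2, Cox7b2 and Cox8c, known from testis, had means of 5.33, 5.91 and 15.2 TPM, and their partners Cox6b1 and Cox7b 334 and 126 TPM. Cox8c was highest in replicate 3 of every group, at 25.8, 41.1, 50.2 and 15.6 TPM, as was the background level. Ndufa4l2, which replaces Ndufa4 under low oxygen, averaged 4.69 TPM, and Cox7a2l averaged 119.7 TPM. The 3 genes for the identical c subunit of the synthase ring, Atp5g1, Atp5g2 and Atp5g3, were expressed side by side at 89.7, 199.7 and 122 TPM. Atp5g2 measured 171 ± 25.8 TPM in young Aβ42+ and 246 ± 31.6 TPM in old Aβ42− cells, while Atp5g3 measured 123 ± 12.3 and 123 ± 5.3 TPM.

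Genes that work with the complexes were read beside them. Of 44 assembly factors, 1 passed in old against young Aβ42− microglia, Cox14, which helps to make subunit 1 of complex IV, from 77.5 ± 2.51 TPM in young cells to 122 ± 18.7 TPM in old cells (limma adjusted p 0.045). Another passed in Aβ42− against Aβ42+ cells of old mice, Sdhaf2, which inserts the flavin into Sdha, with 49.3 ± 9.21 TPM in Aβ42+ and 81.6 ± 14.1 TPM in Aβ42− cells (limma adjusted p 0.0462). Among 17 enzymes of the citric acid cycle none passed, with 14 higher and 3 lower in old against young Aβ42− cells and 16 higher and 1 lower in Aβ42− against Aβ42+ cells of old mice. Of 19 glycolysis enzymes, 2 rose in Aβ42− cells of young mice, Gpi1 from 261 to 403 TPM and Ldha from 107 to 159.6 TPM (limma adjusted p 0.00914 and 0.0471). In old mice 2 others rose, Hk2 from 46.4 to 88.9 TPM and Pfkl from 47.7 to 91 TPM (limma adjusted p 0.030 and 0.0337). Of all genes, 1.73% passed as higher in old against young Aβ42− cells. In the uptake comparisons, 1.43% of all genes passed as higher in young mice and 4.74% in old mice. None of 13 transcription regulators of mitochondrial genes and none of 14 electron carriers, regulators and exchangers passed in any of the 4 comparisons.

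Subunit mRNAs are short, and fold changes went with length in some comparisons. Among the 66 members averaging 50 TPM or more, the Spearman correlation of the log2 fold change with transcript length was -0.44 in old against young Aβ42+ microglia, and among all 3512 genes of that level with a length it was -0.29. Members under 800 bases had a median of 0.24 and longer members 0.04. In Aβ42− against Aβ42+ cells of young mice the correlation was -0.45 over 65 members and -0.25 over all genes of that level. In the other 2 comparisons it was -0.05 and -0.02 over 68 members each. These are descriptions across genes of the same libraries, which are not independent replicates, and the part of length in the differences was not tested.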

How the data were processed

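PolyA RNA of 16 libraries was sequenced with a directional kit as single reads. According to their methods and processing notes, the authors trimmed reads with Trim Galore 0.4.2 and cutadapt 1.9.1 and aligned them to mm10 with STAR 2.5.2a. Picard 1.89 took out duplicate reads, featureCounts counted the rest by RefSeq gene, and TPM were deposited. The use of strand in counting is not given in the sources used here. The deposited TPM have the same sum in every library, so the depth is unknown, count tests could not be run and no counting interval is given.

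Columns were matched to samples by title. A gene was tested where 4 or more of the 8 libraries compared had 1 TPM or more. The test was limma 3.58.1 in R 4.3.3 with a variance trend, two-sided, on log2(TPM + 1), a scale that understates fold changes of low genes. Adjustment followed Benjamini-Hochberg over all genes tested, with a threshold of 0.05. The interaction used all 16 libraries. Single genes were also given an exact two-sided permutation test over 70 arrangements. The p-values measure the spread between these libraries. In the uptake comparisons and the interaction, fits without a block took the sorts of 1 pool as separate libraries. The method was also run on simulated data with noise drawn independently for each gene and library. These held no background level shared within a library, so they cannot show how the test behaves under such differences.

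The titles number the libraries and name no pool. An Aβ42+ and an Aβ42− library of the same age and number were taken as sorted from 1 pool. The replicate number was therefore tried as a block, and in the interaction each of the 8 pools so inferred. Residuals of libraries that share a number correlated across genes at 0.41 to 0.63 for replicates 1 and 3 and at -0.06 to 0.06 for replicates 2 and 4. These ranges cover libraries of the same age and libraries of different ages, which cannot share a pool. Members and lists were chosen with earlier results of these data known. Named were the 2 members of highest mean in each complex, the 5 members of lowest unadjusted p in each test and the lowest of each complex, fixed sets of isoforms and of catalytic subunits, and any member under 1 TPM in all groups, of which there were 0. The values of 1 member of the catalytic set are not reported here. Members of the blocked counts, Cox14, Sdhaf2, Gpi1, Ldha, Hk2, Pfkl, COX1, ND5 and Cd3e were named after their values were seen. For the background level, 10% of 1430 receptor genes were trimmed at each end and the TPM of the rest averaged. Alternatives were TMM, median-of-ratios and quantile scaling, background subtraction or adjustment, an added 0.1 TPM, no filter beyond a value above 0, the block, all 16 libraries and each library left out.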

Additional observations from a re-analysis of the deposited data

Results flagged for a closer look

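Complex II differed in direction between the ages in its sum, though in young mice only 2 of its 4 genes were lower in Aβ42− cells. Its summed TPM was lower in the Aβ42− sort of all 4 young pools and higher in that of all 4 old pools, and the mean difference between sorts was 192 TPM higher in old than in young pools. As a share of the summed TPM of all members, that difference was 1.16 percentage points. This difference between ages was not tested on either measure. The tests of its 4 members are given above, where Sdhd and Sdha passed the interaction with the 8 pools as a block, beside 5.32% of all genes in that direction, and none passed without it.

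Single libraries stood apart from the other 3 of their group in 6 of 132 groups examined, where chance gives about 1 in 20. In young Aβ42− microglia, Ndufa13 read 26.7 TPM and Cox8b 56.6 TPM in replicate 4, Uqcrc2 read 213 TPM in replicate 1, and the ratio of nuclear to mitochondrially encoded subunits was 1.37 in replicate 1. Ndufv3 read 43.1 TPM in young Aβ42+ replicate 4. Atp5e read 194 TPM in old Aβ42+ replicate 3, the library with the highest background level, under all 3 others of its group.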

How the results depend on the processing

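Scaling moved the median log2 fold change of the members. TMM and median-of-ratios factors moved the median of the members to -0.24 and -0.25 in old against young Aβ42+ cells, to 0.82 and 0.67 in old against young Aβ42− cells, and to 1.12 and 0.91 in Aβ42− against Aβ42+ cells of old mice, where the background level as a covariate gave -0.17. With these 2 kinds of factors, the ratios of summed TPM in old against young Aβ42− cells were 1.84 and 1.72 for complex I, 1.74 and 1.64 for II, 1.66 and 1.55 for III, 1.63 and 1.51 for IV and 1.602 and 1.49 for V. In Aβ42− against Aβ42+ cells of old mice they were 2.2 and 1.888, 2.34 and 2.01, 2.06 and 1.76, 1.94 and 1.67, and 1.98 and 1.7 for complexes I to V, and in old against young Aβ42+ cells 0.844 and 0.848 for III, 0.850 and 0.853 for IV and 0.830 and 0.834 for V. In Aβ42− against Aβ42+ cells of old mice, 0 members passed with TMM, median-of-ratios or quantile scaling, background subtracted with or without rescaling, or background as a covariate, and 7 passed with all 16 libraries in the fit, 6 higher and 1 lower, beside 8.16% and 15.5% of all genes. Quantile scaling gave 2 members in old against young Aβ42− cells, beside 1217 of all 31982 genes. The covariate gave 1 in the young uptake comparison, beside 1134 of all 33281 genes.

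With the replicate block, 13 members passed in old against young Aβ42− cells, where the number does not pair the pools, 12 higher and 1 lower beside 5.61% and 6.56% of all genes, 14 in the uptake comparison of old mice and 4 in the interaction, and the counts of the other 2 comparisons stayed at 0. With single libraries or both libraries numbered 3 left out, the counts ran from 0 to 4 in old against young Aβ42+ cells, from 0 to 32 in Aβ42− cells and from 0 to 13 in the uptake comparison of old mice. The counts of 32 and 13 were reached where the background levels of the groups no longer overlapped. Leaving out both libraries numbered 3, background rescaling and the other settings of the complex sums were added after the data were seen.

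Of single genes, Ndufb9 turned to -0.0027 with median-of-ratios factors in old against young Aβ42+ cells, Atp5l to -0.11 with TMM and -0.12 with median-of-ratios factors, and Sdha to 0.0061 with quantile scaling. Uqcrc2 turned to -0.0028 with the covariate in the uptake comparison of old mice. The interaction terms of Uqcr10 turned to 0.57 and 0.35 and those of Ndufa13 to 0.55 and 0.33 with TMM and median-of-ratios factors, and that of Atp5s to 0.46 with quantile scaling, 0.26 with background subtracted and 0.27 after rescaling. The cause of these changes was not tested. For members named by their p in a comparison, and for Cox4i2, all other alternatives kept the direction in that comparison. The other members were not examined singly in this way. The depth is unknown, and with 4 libraries a group no exact permutation p can go under 0.0286.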
